A study of Homo sapiens with 9 samples.

Results

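The promoters of 8 classical p53 target genes were examined in CUT&Tag peak lists from A549 cells. The genes were CDKN1A, MDM2, BAX, GADD45A, FAS, XPC, DDB2 and RRM2B. A listed peak counted for a gene when at least 1 bp of it lay within 2 kb of the gene's transcription start site (TSS) on the hg19 build, and 14 of the 27108 rows of the 3 lists did so. A549 is a human lung adenocarcinoma cell line that carries wild-type p53. CUT&Tag directs a transposase to the sites of an antibody in permeabilised cells, so that fragments from those sites are sequenced. Cells whose endogenous BAZ2B carries an HA epitope inserted at its 5′ end were profiled with anti-HA antibody (HA-BAZ2B, 3 libraries) and with anti-H3K4me3 antibody (H3K4me3, 3 libraries). Untagged wild-type A549 cells were profiled with the same anti-HA antibody (WT, 3 libraries) and show what the antibody yields without its epitope. Each group had 1 deposited list, so no value below has a replicate error, no test across replicates could be made, and library depth is unknown. Whether the tagged line is 1 clone is not stated by the labels. The protocols mention an siRNA transfection without assigning it to libraries, and no agent that activates p53 is named.

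p53 is a transcription factor that is stabilised after DNA damage and other stress and then raises transcription of genes for cell cycle arrest, DNA repair and cell death. Several of these genes already have active promoters in unstressed cells with wild-type p53. H3K4me3 is a histone mark of active promoters, placed mostly on the nucleosomes just downstream of the TSS. BAZ2B is a bromodomain protein that works with ISWI ATPases to move nucleosomes, and the study set out from its relation to G-quadruplexes, DNA folds built from closely spaced runs of guanine.

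All 8 promoters carried an H3K4me3 peak, 5 carried an HA-BAZ2B peak and 1 carried a WT peak. The HA-BAZ2B peaks lay at MDM2, BAX, XPC, DDB2 and RRM2B, and the WT peak lay at RRM2B. CDKN1A, GADD45A and FAS had H3K4me3 alone. The lists differ in length, with 17018 H3K4me3, 6794 HA-BAZ2B and 2389 WT peaks on the assembled chromosomes. With each list limited to its 2389 most significant peaks, 2 promoters had H3K4me3 (BAX and XPC), 1 had HA-BAZ2B (BAX) and 1 had WT (RRM2B). By role, the 2 arrest genes CDKN1A and GADD45A had 0 HA-BAZ2B peaks, the 2 cell death genes BAX and FAS had 1, the feedback gene MDM2 had 1, and the 3 repair and nucleotide supply genes XPC, DDB2 and RRM2B had 3, that of RRM2B together with a WT peak. These roles were assigned with the peaks known, and GADD45A also acts in repair, so the counts by role are a description only. Over all 17018 H3K4me3 peaks, 39.5% overlapped an HA-BAZ2B peak, 13.1% a WT peak, and 28.2% an HA-BAZ2B peak but no WT peak. Of the members, 4 of 8 had an HA-BAZ2B peak and no WT peak. In the members' own classes of H3K4me3 peaks by width and fold enrichment, described below, 42.0% to 69.0% overlapped an HA-BAZ2B peak. No test of the counts of 5 and 1 among the 8 genes against any of these shares was made. Each of the 14 peaks covered the TSS itself, and the nearest further peak of any list lay 10.2 kb from a member's TSS, downstream of BAX. No peak was therefore counted only through the edge of the 2 kb window.

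**Figure D1:**
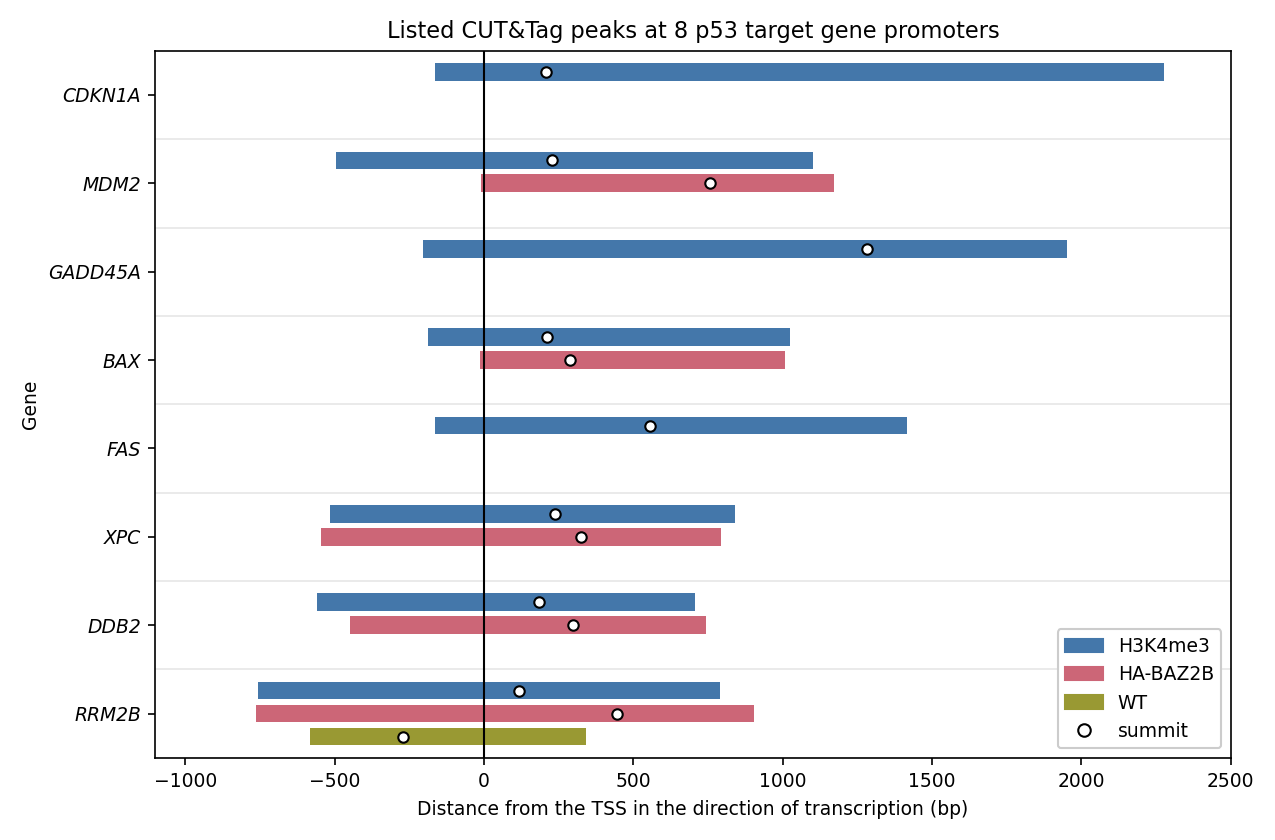
Horizontal bars give the extent of each listed peak relative to the TSS in bp, with transcription running to the right, for 8 genes (rows) and 3 lists (colours), and white circles mark the summits. All 8 genes have an H3K4me3 bar, 5 have an HA-BAZ2B bar and RRM2B alone has a WT bar, and the HA-BAZ2B summit lies to the right of the H3K4me3 summit in 5 of 5 genes.

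Promoter sequences are shown for 4 genes because they differ in guanine runs, the sequence feature that the study's subject makes relevant. They are the 250 bases before the most upstream start site in RefSeq (build GRCh38.p14), 5′ to 3′ on the gene's strand, with runs of 3 or more G or C in capitals. CDKN1A and FAS had no HA-BAZ2B peak, and MDM2 and BAX had one, as did XPC and DDB2, whose sequences are not shown. Runs of G on the strand shown numbered 15 in CDKN1A, 6 in FAS, 3 in MDM2 and 7 in BAX. Runs of C, which are runs of G on the opposite strand, numbered 5, 8, 13 and 3 in the same order. The RefSeq start sites were not placed on hg19, so these letters are not aligned to the peaks base by base. Their positions are chr6:36678464-36678713 for CDKN1A, chr10:88990548-88990797 for FAS, chr12:68807922-68808171 for MDM2 and chr19:48954625-48954874 for BAX, all on the plus strand.
CDKN1A: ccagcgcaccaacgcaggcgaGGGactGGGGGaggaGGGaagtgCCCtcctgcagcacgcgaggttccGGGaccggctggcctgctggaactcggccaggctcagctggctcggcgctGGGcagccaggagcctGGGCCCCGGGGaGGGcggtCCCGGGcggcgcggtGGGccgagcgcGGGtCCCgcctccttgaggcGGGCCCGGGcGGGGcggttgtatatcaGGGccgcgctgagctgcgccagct
FAS: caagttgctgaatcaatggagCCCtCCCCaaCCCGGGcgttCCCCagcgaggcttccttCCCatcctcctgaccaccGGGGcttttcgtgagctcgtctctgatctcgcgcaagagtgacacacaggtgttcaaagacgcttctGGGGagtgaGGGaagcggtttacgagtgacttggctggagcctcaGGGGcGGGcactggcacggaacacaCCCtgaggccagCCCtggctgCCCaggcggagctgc
MDM2: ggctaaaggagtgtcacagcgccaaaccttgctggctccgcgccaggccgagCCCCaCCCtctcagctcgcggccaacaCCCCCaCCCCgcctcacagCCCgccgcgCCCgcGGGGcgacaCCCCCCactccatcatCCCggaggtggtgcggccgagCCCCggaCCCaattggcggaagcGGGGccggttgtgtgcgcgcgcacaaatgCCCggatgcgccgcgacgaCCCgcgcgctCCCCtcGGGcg
BAX: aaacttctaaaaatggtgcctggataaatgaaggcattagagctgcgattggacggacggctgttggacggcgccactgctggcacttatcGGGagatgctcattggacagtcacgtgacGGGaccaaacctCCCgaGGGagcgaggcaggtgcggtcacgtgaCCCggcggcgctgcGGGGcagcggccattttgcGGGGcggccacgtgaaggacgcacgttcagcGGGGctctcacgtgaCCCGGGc

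A G-quadruplex motif was searched as 4 runs of at least 3 G separated by 1 to 7 bases of any kind, on both strands, in the 300 bases from 250 before to 50 after each RefSeq start site. It was present in 25.0% of the 35116 RefSeq promoter entries. RefSeq entries matched 6 of the 8 genes, with 12 entries in all. CDKN1A held the motif once, on the gene's strand, 116 to 92 bases before the start site: GGGccccGGGGaGGGcggtcccGGG. FAS held it at 1 place, on the opposite strand, 229 to 206 bases before its first start site: GGGGaacgcccGGGttGGGGaGGG. Capitals mark the guanine runs, and the CDKN1A motif contains 1 of the gene's GC boxes (GGGCGG). MDM2 (4 entries), BAX (1), XPC (1) and DDB2 (2) held no match, nor did the other FAS entries. In the searched bases, the 2 matched genes without an HA-BAZ2B peak thus had the motif and the 4 with a peak did not. This describes 6 genes and was not tested. The HA-BAZ2B peaks of these 4 genes reached 744 bp (DDB2) to 1171 bp (MDM2) downstream of the TSS. Much of the sequence under them was therefore not searched. With loops of up to 12 bases, every MDM2 entry and the second DDB2 entry also held a match, as did 37.8% of all entries.

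A p53 half-site, with the core CATG and the consensus flanks, was found in 1.57% of the entries, and among the 6 matched genes in DDB2 alone. It lies just after the second DDB2 start site, 520 bp downstream of the first, and next to a second half-site with the core CAAG, 1 base away: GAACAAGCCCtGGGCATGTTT (chr11:47214979-47214999, GRCh38.p14, 5 to 25 bases after the start site, half-sites in capitals). A pair of half-sites with up to 13 bases between them, the core being C, 2 bases of A or T, and G, was in 10 of the 35116 entries (0.0285%). FAS held a single half-site of that broader kind, GGACAAGCCC, before its start site farthest downstream, and 6.63% of all entries held at least 1. The search took exact matches only, in the same 300 bases per start site. Sites elsewhere were not searched, nor were GADD45A and RRM2B, which had no entry. Other short motifs were counted on both strands. The exact letters TATAAA, a form of the TATA box, were in no entry of the 6 genes and in 11.5% of all entries. Variant TATA boxes were not searched. The letters GGGCGG, the GC box bound by Sp1-type factors, were in every entry of the 6 genes but the first DDB2 entry. They were in 45.0% of all entries. CCAAT was present in every entry of MDM2 and BAX and in the first DDB2 entry, against 34.6% of all entries. The share of G and C in the 12 entries ran from 58.3% in the first DDB2 entry to 74.7% in the first MDM2 entry. The median over all entries was 58.7%, and of the 12 only the first DDB2 entry fell below it. Of all entries, 48.8% were lower than that DDB2 entry and 89.7% lower than the first MDM2 entry.

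Fold enrichment, below, is the ratio that the authors' peak caller gave for a peak over its own background estimate, −log10 q is the caller's significance, and both belong to 1 library of the group. Drosophila chromatin (35 ng) was added as a spike-in, per the labels, and whether it was used to scale the values is not known, so levels are not compared between lists and each value is placed by the share of its own list that is lower. The median fold enrichment was 9.07 in the H3K4me3 list, 8.16 in the HA-BAZ2B list and 6.42 in the WT list.

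CDKN1A encodes p21, the inhibitor of cyclin-dependent kinases through which p53 arrests the cell cycle. Its promoter at 6p21.2 (TSS at chromosome 6, 36646459) carried the broadest and weakest H3K4me3 peak of the 8 genes, 2441 bp wide (chromosome 6, 36646296 to 36648736), its fold enrichment being 3.64 and its −log10 q 23.6. In the H3K4me3 list, 98.5% of peaks were narrower and 2.17% had a lower fold enrichment. Only 23 H3K4me3 peaks (0.135% of the list) were at least that wide with a fold enrichment no higher, and 10 of these 23 overlapped an HA-BAZ2B peak. The CDKN1A peak reached 163 bp upstream and 2277 bp downstream of the TSS, with its summit 207 bp downstream. The nearest HA-BAZ2B peak lay 131 kb upstream and the nearest WT peak 544 kb downstream.

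GADD45A encodes a small stress protein that acts in growth arrest and repair, and its promoter at 1p31.3 (TSS at chromosome 1, 68150883) was, like that of CDKN1A, broadly marked at a low fold enrichment. Its H3K4me3 peak was 2157 bp wide (chromosome 1, 68150680 to 68152836) and had a fold enrichment of 5.12 and a −log10 q of 34.4. In the list, 96.8% of peaks were narrower and 8.39% had a lower fold enrichment. The summit lay 1282 bp downstream of the TSS, the farthest of the 8 genes. HA-BAZ2B and H3K4me3 were next listed 147 kb downstream, at the same neighbouring site.

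MDM2 encodes the ubiquitin ligase that degrades p53 and so closes a negative feedback loop. Its promoter at 12q15 (TSS at chromosome 12, 69201971) had an H3K4me3 peak of 1598 bp (chromosome 12, 69201477 to 69203074), a fold enrichment of 5.25 and a −log10 q of 44.0. Its HA-BAZ2B peak was 1183 bp wide (69201960 to 69203142), with a fold enrichment of 4.82 and a −log10 q of 23.9. Both ranked low by fold enrichment, with 9.13% of H3K4me3 peaks and 8.21% of HA-BAZ2B peaks lower. The HA-BAZ2B peak began 11 bp upstream of the TSS, whereas the H3K4me3 peak began 494 bp upstream. Its summit lay 757 bp downstream of the TSS, and that of H3K4me3 227 bp downstream. This distance of 530 bp between summits exceeded that of 92.1% of the 6556 one-to-one pairs of HA-BAZ2B and H3K4me3 peaks, whose median was 84 bp. MDM2 is known for a constitutive promoter and an internal one that responds to p53. RefSeq lists 2 start sites 5 bp apart and another 2 at 845 and 852 bp downstream of the first. As these were not placed on hg19, their distances cannot be set beside those of the summits.

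BAX encodes a pore-forming protein of the mitochondrial death pathway. At 19q13.33 (TSS at chromosome 19, 49458117) it had the highest fold enrichment of the members in both lists. The H3K4me3 peak (chromosome 19, 49457930 to 49459141, 1212 bp) had a fold enrichment of 11.5 and a −log10 q of 72.9, with 78.5% of its list lower in fold. The HA-BAZ2B peak (49458105 to 49459124, 1020 bp) had 11.1 and 43.4, with 85.3% lower. BAX thus stood high in both lists while its peaks were the narrowest of the members. The HA-BAZ2B peak lay wholly inside the H3K4me3 peak, beginning 12 bp upstream of the TSS, and the summits were 76 bp apart.

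FAS encodes a death receptor at the cell surface. Its promoter at 10q23.31 (TSS at chromosome 10, 90750288) had an H3K4me3 peak of 1581 bp (chromosome 10, 90750124 to 90751704), a fold enrichment of 8.87 and a −log10 q of 57.0, and 47.3% of the list was lower in fold. FAS was therefore not a weak H3K4me3 site, unlike the other members without HA-BAZ2B. Its summit lay 554 bp downstream of the TSS. RefSeq lists FAS start sites at 116 and 633 bp downstream of the first. These start sites were not placed on hg19, so their distances cannot be set beside that of the summit. The nearest HA-BAZ2B and WT peaks lay 109 and 110 kb upstream, on the same H3K4me3 site.

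XPC and DDB2 encode damage sensors of nucleotide excision repair. At XPC (3p25.1, minus strand, TSS at chromosome 3, 14220172), the H3K4me3 peak (14219331 to 14220688, 1358 bp) had a fold enrichment of 10.8 and a −log10 q of 73.7, and the HA-BAZ2B peak (14219378 to 14220717, 1340 bp) had 8.99 and 33.3. At DDB2 (11p11.2, TSS at chromosome 11, 47236493), the H3K4me3 peak (47235934 to 47237198, 1265 bp) had 8.20 and 51.3, and the HA-BAZ2B peak (47236044 to 47237237, 1194 bp) had 8.26 and 31.1. In both genes, the anti-HA peak matched the H3K4me3 peak closely in extent: it was 0.987 times as wide at XPC and 0.944 times at DDB2, against a median of 0.918 over all pairs. Summits were 86 bp apart at XPC and 114 bp at DDB2. By fold enrichment, 61.8% of the HA-BAZ2B list was lower than XPC and 51.4% lower than DDB2.

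RRM2B encodes the p53-inducible small subunit of ribonucleotide reductase, which supplies deoxynucleotides for repair. At 8q22.3 (minus strand, TSS at chromosome 8, 103251346) it was the 1 member with a peak in all 3 lists. The H3K4me3 peak (103250557 to 103252104, 1548 bp) had a fold enrichment of 7.61 and a −log10 q of 62.6. The HA-BAZ2B peak (103250441 to 103252108, 1668 bp) had 7.47 and 30.6, and the WT peak (103251004 to 103251930, 927 bp) had 6.91 and 13.1. The WT peak was not among the weakest of its list, since 61.4% of WT peaks had a lower fold enrichment and 82.5% were narrower. It lay wholly within the HA-BAZ2B peak and covered 55.6% of it. Their summits fell on opposite sides of the TSS, that of WT 272 bp upstream and that of HA-BAZ2B 446 bp downstream. This separation of 718 bp was larger than that of 91.5% of the 1902 one-to-one pairs of WT and HA-BAZ2B peaks, whose median was 175 bp. The HA-BAZ2B peak at RRM2B is a site where untagged cells also gave a peak, as were 28.7% of all HA-BAZ2B peaks.

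**Figure D2:**
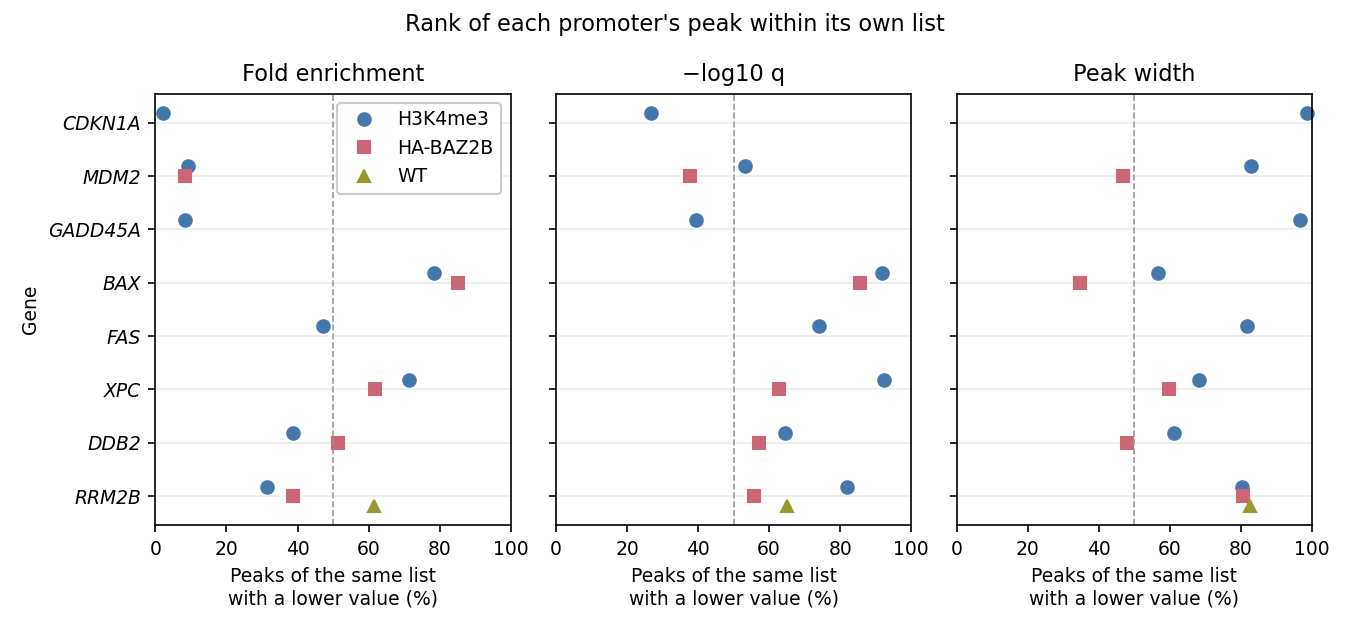
Points give, for each gene (rows), the share of its own list in percent that has a lower fold enrichment, −log10 q or width, for H3K4me3 (circles), HA-BAZ2B (squares) and WT (triangles), and the dashed line marks 50%. CDKN1A, MDM2 and GADD45A lie below 10% by H3K4me3 fold enrichment and above 80% by H3K4me3 width.

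All 8 H3K4me3 peaks of the members were wider than the list's median of 1132 bp, from 1212 bp at BAX to 2441 bp at CDKN1A, with a median of 1565 bp. In fold enrichment, 2 of 8 (BAX and XPC) exceeded the list's median, and in −log10 q 6 of 8 did, all but CDKN1A and GADD45A. In the whole list, too, the widest peaks were mostly low in fold enrichment: of the widest of 5 equal groups, 1281 peaks fell into the lowest of 5 groups by fold enrichment and 3 into the highest. The members were picked for their known regulation, and their widths and fold enrichments were not tested against the list.

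The marks lay downstream of the TSS. All 8 H3K4me3 summits were downstream, by 117 bp (RRM2B) to 1282 bp (GADD45A) with a median of 219 bp, and all 8 peaks reached further downstream than upstream. All 5 HA-BAZ2B summits were downstream too, by 287 bp (BAX) to 757 bp (MDM2) with a median of 324 bp. Each HA-BAZ2B summit was further downstream than the H3K4me3 summit of the same gene, by 76 bp at BAX, 86 bp at XPC, 114 bp at DDB2, 329 bp at RRM2B and 530 bp at MDM2. The first 3 of these distances are ordinary for the lists, with 47.8% to 57.1% of all pairs closer together. The direction relative to transcription was not measured at other promoters, because no gene annotation of hg19 was used. All 5 HA-BAZ2B peaks overlapped the H3K4me3 peak of their gene, by 92.8% to 100% of their own width, and 99.0% of all HA-BAZ2B peaks overlapped H3K4me3.

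Among the members, the genes without HA-BAZ2B had the broader H3K4me3 peaks, whereas in the whole list broader peaks more often carried HA-BAZ2B, a contrast that 8 genes give as a description only. The 3 genes without HA-BAZ2B had H3K4me3 peaks of 1581 bp (FAS), 2157 bp (GADD45A) and 2441 bp (CDKN1A), and the 5 genes with HA-BAZ2B had peaks of 1212 to 1598 bp, so that the groups overlapped only through FAS and MDM2. With all H3K4me3 peaks divided into 5 equal groups by fold enrichment and 5 by width, CDKN1A, GADD45A and MDM2 fell into the same class of 1281 low and broad peaks, of which 58.4% overlapped an HA-BAZ2B peak and 21.6% a WT peak. MDM2 had an HA-BAZ2B peak and the other two did not. FAS fell into a class of 509 peaks in which 69.0% had HA-BAZ2B, the highest share of the 8 genes' classes, and had none. BAX fell into a class of 1263 peaks in which 42.0% had HA-BAZ2B, the lowest of the 8 genes' classes, and had one. The classes of RRM2B, XPC and DDB2 had shares of 63.0%, 61.9% and 43.3%, and each of these genes had an HA-BAZ2B peak.

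By −log10 q, the members without HA-BAZ2B were, apart from FAS, those with the lowest H3K4me3 values, as in the whole list, again without a test. With H3K4me3 peaks in 10 equal groups, numbered from the lowest −log10 q, CDKN1A fell into group 3 and GADD45A into group 4, where 16.3% and 25.3% had an HA-BAZ2B peak. BAX and XPC fell into group 10, where 77.6% had one, RRM2B into a group with 66.9%, DDB2 into one with 50.3% and MDM2 into one with 42.8%. FAS was the exception, without HA-BAZ2B in a group where 57.9% had it. For WT peaks, the groups of the 8 genes had shares of 6.23% (CDKN1A) to 30.4% (BAX and XPC), and 23.0% for RRM2B, the gene with the WT peak.

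**Figure D3:**
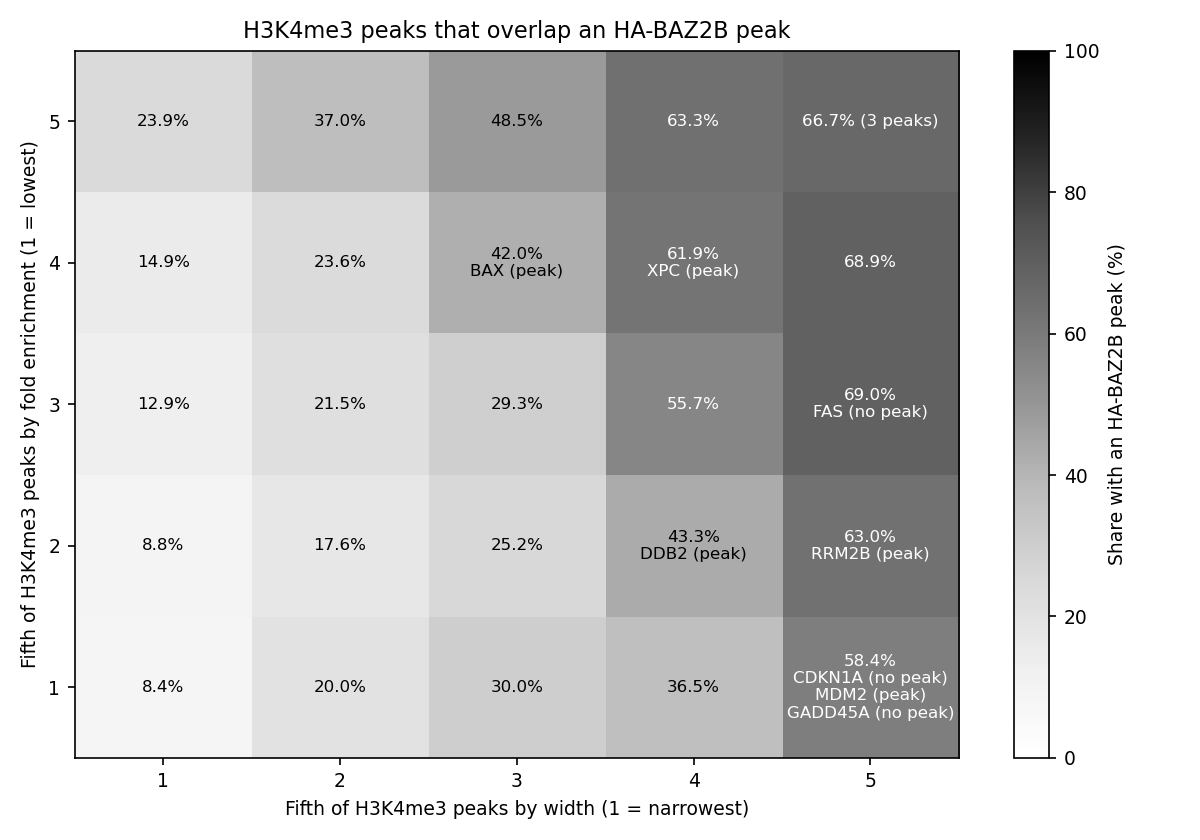
Shading and numbers give the share of H3K4me3 peaks in percent that overlap an HA-BAZ2B peak, with peaks divided into 5 equal groups by width (horizontal axis) and by fold enrichment (vertical axis), and gene names mark the class of each member and whether it has an HA-BAZ2B peak. Shares increase towards wide peaks. Of the members in the widest group, CDKN1A, GADD45A and FAS have no HA-BAZ2B peak, and MDM2 and RRM2B have one. The class at the top right rests on 3 peaks.

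Absence from a list does not show that no signal was present. A peak was kept only when it recurred in at least 2 replicates, and the numbers in the peak names run in order along each chromosome, so missing numbers count the peaks of the source library that were removed. Most were removed in both anti-HA lists: numbers reached 16278 for 7027 kept HA-BAZ2B rows and 9696 for 2451 kept WT rows. In the HA-BAZ2B list, 2 numbers were missing from the gap of 327 kb around CDKN1A, 2 from the gap of 401 kb around GADD45A and 8 from the gap of 820 kb around FAS. In the WT list, 2 numbers (BAX) to 29 (CDKN1A) were missing from the gaps around the 7 genes without a WT peak. For every gene and list without a peak, a removed peak at the promoter and no peak at all cannot be told apart.

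The surroundings of the 8 genes differed in how many marked sites they held. Within 200 kb on either side, BAX had 18 further H3K4me3, 8 HA-BAZ2B and 6 WT peaks. DDB2 had 6, 3 and 1, MDM2 5, 2 and 0, and CDKN1A 5, 2 and 0. FAS had 2, 1 and 1, RRM2B 2, 1 and 0, and both XPC and GADD45A 1, 1 and 0. CDKN1A, GADD45A and FAS thus had HA-BAZ2B peaks at other sites within 200 kb (2, 1 and 1), of which the one near FAS coincided with a WT peak.

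**Figure D4:**
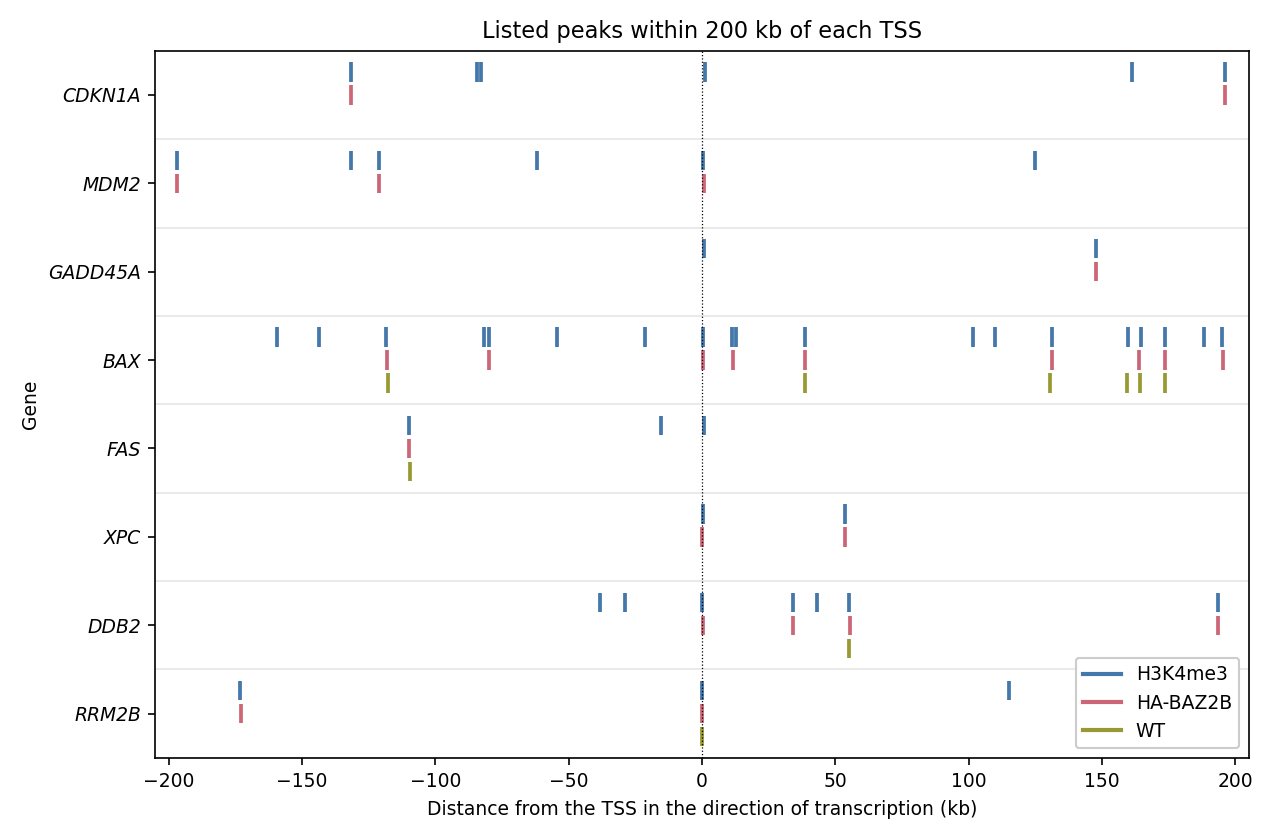
Ticks mark the midpoints of listed peaks within 200 kb of each TSS in kb, with transcription running to the right, for 8 genes (rows) and 3 lists (colours). BAX has the densest surroundings, and CDKN1A, GADD45A and FAS lack an HA-BAZ2B tick at the TSS but have 2, 1 and 1 elsewhere in the window.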

How the data were processed

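The 9 CUT&Tag libraries in 3 groups of 3 were grouped by their sample titles. Per the submitters' processing notes, reads were handled with Bowtie2 2.4.5, Picard, SAMtools 1.15.1, bedtools and MACS2 2.1.4 on hg19 and dm6. Caller settings and controls are not stated there. Kept peaks had to occur in at least 2 replicates, per the labels, in the coordinates of the largest replicate file (H3K4me3 replicate 1, HA-BAZ2B replicate 3, WT replicate 2, from the peak names). The authors deposited fold enrichment as a ratio, significance as −log10 q, a score and peak positions, another measure in bp. Depth is unknown. TSS positions came with the choice of genes, which, like the lists and roles, was made with earlier results of these data known. All 8 genes are named by rule. Peaks of the assembled chromosomes were matched to TSS and to each other at 1 bp or more, with a self-test on simulated peaks. Other p53 pathway genes were not analysed here. Alternatives were the window, −log10 q minimum, list length, overlap, distance from the H3K4me3 summit, the highest peak or summed width in a window, and motif definition. Gene strands came from RefSeq for 6 genes and from general knowledge for GADD45A and RRM2B. Bands came from circlize 0.4.16; other tools were Python 3.11.15, pandas 2.3.3, numpy 2.4.6 and scipy 1.17.1.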

Additional observations from a re-analysis of the deposited data

How the results depend on the processing

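The counts of 8 promoters with H3K4me3, 5 with HA-BAZ2B, 1 with WT and 4 with HA-BAZ2B but no WT were the same with windows of 1 or 5 kb, with peaks required to cover the TSS, and with a −log10 q of at least 5 or 10. With every list limited to its 2389 most significant peaks, the length of the WT list, 2 promoters had H3K4me3 (BAX and XPC), 1 had HA-BAZ2B (BAX), 1 had HA-BAZ2B but no WT (BAX), and RRM2B kept its WT peak. Fewer peaks are tested there by construction. The share of all H3K4me3 peaks with HA-BAZ2B was 37.0%, and with WT 6.39%, for overlaps of at least 50% of the H3K4me3 peak, against 39.5% and 13.1%; the narrower WT peaks cover less of an H3K4me3 peak. Other motif definitions were tried after the data had been seen: with the broader core, 2 genes in place of 1 held a p53 half-site, and with loops of up to 12 bases, 4 genes in place of 2 held a G-quadruplex motif. Counting peaks within 2 kb of the H3K4me3 summit gave 40.2% with HA-BAZ2B and 13.5% with WT, against 39.5% and 13.1% by overlap. Since every member had at most 1 peak per list and each peak covered the TSS, the narrower windows, the highest peak and the summed width could not change a value. Nor could the 5 kb window, because the nearest further peak lay 10.2 kb from a TSS. The lowest −log10 q of the members' peaks was 13.1 (RRM2B, WT), so the minimum of 5 or 10 could not remove any. Among these alternatives, the counts could therefore change only with the list length. No paired analysis was possible because each group has 1 list and no value per replicate, and for the same reason no replicate could be left out.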
